A study of Mus musculus with 2 samples.

Results

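The genes described here are 9 genes of skeletal muscle fibres, Myh4, Pvalb, Atp2a1, Tnnt3, Tnnc2, Ttn, Mybpc2, Acta1 and Ckm, out of 19465 genes counted in 2 sections of mouse melanoma. They were listed because earlier results of these data put them among the muscle genes with more unique molecular identifiers (UMIs, 1 per captured probe molecule) in the KO section. That difference between sections is therefore described below and not tested. The questions were how many spots of each section held muscle, where those spots lay, which fast and slow fibre genes they carried, how far the UMIs spread around them, and how they lay relative to T cell and MHC class II genes.

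The KO section came from a Foxp3-Cre × CK2b-fl/fl mouse, whose Cre is driven by Foxp3, the gene of regulatory T cells, so that the floxed Csnk2b gene is meant to be removed in those cells alone. The WT section came from a Csnk2bfl/fl mouse, labelled wild type, which carries the floxed gene and for which no Cre is named. Both mice, 8 to 16 weeks old and untreated, bore B16.F10 melanoma, a mouse cell line, and the tumours were taken on day 15, fixed in formalin and embedded in paraffin. Each genotype is 1 section of 10 µm, read with Visium CytAssist, which captures gene probes from tissue on a grid of barcoded spots, each wide enough to hold several cells.

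The KO section had 2746 spots under tissue and 94422680 UMIs, and the WT section 3066 spots and 88735936 UMIs. The grid barcodes are the same on every slide of this kind, and 2138 barcodes were under tissue in both. Csnk2b stood at 392 CPM (UMIs of a gene in 1000000 UMIs of its section) in each section, and Foxp3 at 0.540 CPM (51 UMIs) in the KO and 0.361 CPM (32 UMIs) in the WT section. A loss of Csnk2b in so rare a cell type cannot be seen in such sums, and which part of the gene its probes read is not given in the sources used here, so the gene does not check the labels. With 1 section a genotype there is no spread between animals. Intervals are 95% limits for counting error only, and genotype cannot be told apart from the plane of the section or the tissue cut with the tumour.

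Skeletal muscle fibres are long fused cells that differ in the speed at which they contract. Fast fibres use the heavy chain myosins IIb (Myh4), IIx (Myh1) and IIa (Myh2), while slow fibres use the myosin of Myh7, which they share with the heart. Most proteins of the contractile unit also come in fast and slow forms, and the limb and trunk muscle of mice is rich in IIb fibres. In the skin of mice a thin sheet of striated muscle lies beneath the fat.

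The 9 genes cover the parts of a fibre. Myh4 encodes the motor itself, Acta1 the skeletal actin it pulls on, and Ttn the giant spring titin. Tnnt3 and Tnnc2 encode the fast forms of troponin T and troponin C, which switch contraction on, and Mybpc2 the fast form of myosin-binding protein C. Atp2a1 encodes the fast calcium pump and Pvalb parvalbumin, a calcium buffer of the fastest fibres. Ckm encodes muscle creatine kinase, which restores ATP. Acta1, Ttn and Ckm are used by slow fibres too, so of the 9 genes 6 mark fast fibres.

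In the RefSeq annotation of GRCm38.p6, Myh4 (ENSMUSG00000057003) lies on chromosome 11 at positions 67237812 to 67260447. Myh1 at 67200102 to 67224577 and Myh2 at 67171027 to 67197517 are its neighbours. Atp2a1, Tnnt3, Mybpc2 and Ckm lie on chromosome 7, Tnnc2 and Ttn on chromosome 2, Acta1 on chromosome 8 and Pvalb on chromosome 15.

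Promoter windows are shown for 3 members and for the slow myosin Myh7, whose levels separate the muscle of the sections below. They are RefSeq windows of GRCm38.p6, from 250 bases before to 50 after the gene's start, printed 5′ to 3′ on the gene's strand. Capitals mark every match on either strand to the E-box CANNTG (bound by myogenic factors of the MyoD family), the TATA box TATAAA, the CArG box (bound by serum response factor) and the MEF2 box.
Myh4, chr11:67237562-67237861, plus strand: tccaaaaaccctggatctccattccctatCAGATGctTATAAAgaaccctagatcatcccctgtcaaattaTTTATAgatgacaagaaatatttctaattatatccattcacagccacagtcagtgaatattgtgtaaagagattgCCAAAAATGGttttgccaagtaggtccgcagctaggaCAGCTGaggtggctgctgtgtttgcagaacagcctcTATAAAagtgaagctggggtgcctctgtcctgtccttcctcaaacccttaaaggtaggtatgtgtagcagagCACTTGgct
Acta1, chr8:123894726-123895025, minus strand: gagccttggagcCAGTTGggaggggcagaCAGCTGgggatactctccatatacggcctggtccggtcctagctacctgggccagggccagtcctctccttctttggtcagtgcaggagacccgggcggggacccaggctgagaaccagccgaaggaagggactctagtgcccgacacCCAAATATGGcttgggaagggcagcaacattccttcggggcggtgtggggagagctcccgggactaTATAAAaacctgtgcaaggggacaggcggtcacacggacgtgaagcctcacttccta
Ttn, chr2:76982498-76982797, minus strand: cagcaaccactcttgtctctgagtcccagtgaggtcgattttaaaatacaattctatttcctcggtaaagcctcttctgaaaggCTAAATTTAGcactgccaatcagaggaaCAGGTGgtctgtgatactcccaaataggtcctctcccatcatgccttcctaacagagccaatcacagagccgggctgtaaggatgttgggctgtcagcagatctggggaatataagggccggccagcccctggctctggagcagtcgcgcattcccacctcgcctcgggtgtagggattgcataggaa
Myh7, chr14:54994577-54994876, minus strand: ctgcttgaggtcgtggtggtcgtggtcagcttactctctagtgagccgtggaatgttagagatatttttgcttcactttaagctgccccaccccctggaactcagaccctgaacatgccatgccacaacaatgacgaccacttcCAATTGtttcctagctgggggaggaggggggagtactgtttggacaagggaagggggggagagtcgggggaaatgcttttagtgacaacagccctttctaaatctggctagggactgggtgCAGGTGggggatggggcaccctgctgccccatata
Windows were at hand for 8 of the 9 members, all but Tnnt3. An E-box stood in a window of 8 of 8, for Pvalb in 1 of its 2 windows, but also in 72.3% of all 32851 windows, so the match sets no member apart. The form CAGCTG stood in 4 of 8 members (Myh4, Atp2a1, Acta1 and Ckm), against 16.3% of all windows. The CArG box stood in 2 of 8 (Myh4 and Acta1), against 1.63%, and the MEF2 box in 1 of 8 (Ttn), against 0.557%. The TATA box stood in 2 of 8 (Myh4 and Acta1), against 13.6%. The Myh7 window held 2 E-boxes and none of the other motifs. A match describes letters in these windows and is not evidence of binding.

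Summed over the 9 genes, KO spots held 22932 UMIs (243 CPM) and WT spots 3586 (40.4 CPM), a ratio of 6.01 (5.80 to 6.23). All 9 were higher in KO by 2-fold or more, a count that the choice of genes fixed, and so were 14.9% of the genes tested, those with at least 50 UMIs. Myh4 had 2486 UMIs in the KO and 64 in the WT section, and Pvalb 1001 and 64. Atp2a1 had 1603 and 195, Tnnt3 2222 and 273, Tnnc2 2678 and 355, and Mybpc2 675 and 79. Of the genes used by all fibres, Acta1 had 6958 UMIs in the KO and 1300 in the WT section, Ttn 2254 and 291, and Ckm 3055 and 965. The ratios of the 9 genes thus ran from 2.98 for Ckm (2.77 to 3.20) to 36.5 for Myh4 (28.5 to 47.5), with a median of 7.65. In such sums fewer muscle cells and less RNA per cell cannot be told apart, and the values below give the number of muscle spots and the level within them separately.

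The UMIs were packed into few spots. In the KO section the number of spots that held 50% of a gene's UMIs ran from 21 for Pvalb to 36 for Ckm, out of 2746. Over the 3066 WT spots it ran from 5 for Atp2a1 to 11 for Pvalb, but was 133 for Ckm. Ckm was also the member seen most widely, with a UMI in 29.9% of KO and 18.8% of WT spots. In the authors' deposited table, Moran's I, a score of how strongly a gene's values cluster in space, ran from 0.513 (Mybpc2) to 0.636 (Acta1) in the KO section. It ran from 0.266 (Myh4) to 0.551 (Acta1) in the WT section. In the authors' deposited table these scores put the 9 genes at ranks 39 to 241 of 19339 genes in the KO section and 289 to 3009 of 19296 in the WT section.

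A muscle spot was defined as a spot in which the 9 genes gave at least 1% of its UMIs and at least 20 UMIs. The KO section had 55 muscle spots (2.00% of its spots, 1.51 to 2.60), and the WT section 9 (0.294%, 0.134 to 0.557). These limits treat spots as independent draws, which touching spots are not, and so are too narrow. Most of the 9 genes mark fast fibres, so a spot with slow fibres can fall short of the threshold. The numbers are therefore not amounts of muscle. Without Acta1 and Ckm, which slow fibres use too, there were 44 muscle spots in the KO and 5 in the WT section. The member share of these spots had a lowest value of 1.07%, a median of 3.34% and a highest of 8.85% in the KO section. For WT muscle spots these were 1.23%, 2.15% and 4.29%. The nearest spots under the threshold stood at 0.889% in the KO and 0.978% in the WT section, and 1 further WT spot passed 1% on fewer than 20 member UMIs.

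The KO muscle spots formed 4 patches of touching spots, of 31, 19, 4 and 1 spots. The patch of 31 ran along the upper left margin (grid rows 0 to 12, columns 7 to 15), and 3 of its spots lay on the frame of the capture area, so the muscle there may run on beyond it. The patches of 19 (rows 31 to 41, columns 99 to 106), 4 (rows 46 to 48, columns 98 to 102) and 1 (row 44, column 98) lay in line along the right margin. The WT muscle spots formed 1 patch of 9 at rows 6 to 11 and columns 40 to 44. Of the neighbours of a muscle spot, 68.1% were muscle spots too on the KO section and 59.6% on the WT section. Muscle lay within 2 steps of the tissue edge for 44 of 55 KO spots (80.0%, against 27.7% of all KO spots) and for 9 of 9 WT spots (against 44.5% of all WT spots). Where tissue meets the frame of the capture area, the frame counts as the edge.

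**Figure D1:**
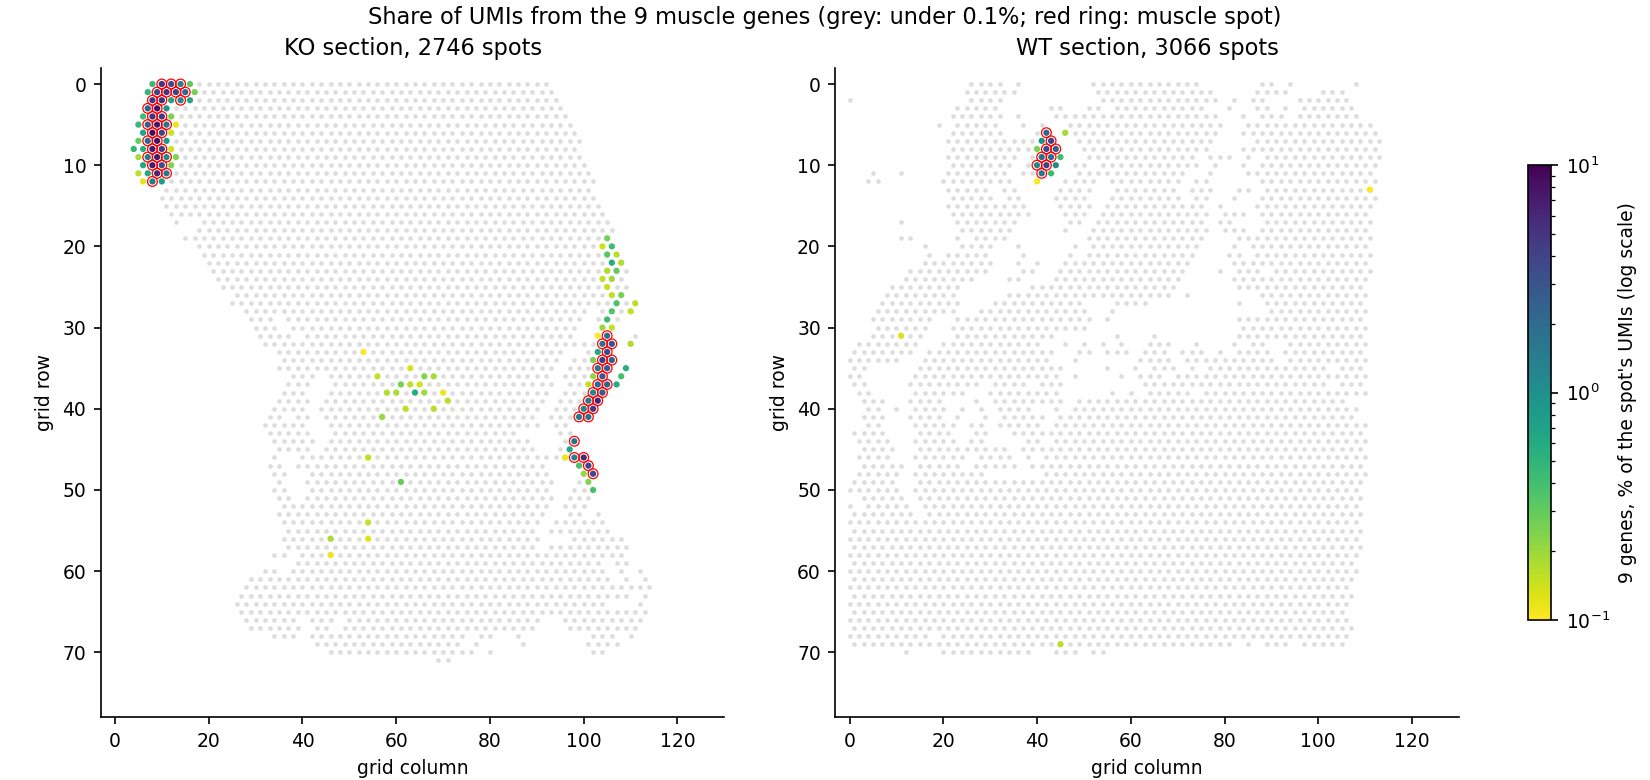
Each point is a spot under tissue at its grid row and column, coloured by the percent of its UMIs from the 9 genes on a log scale, with the KO section on the left and the WT section on the right; red rings are muscle spots. The 55 KO muscle spots line the upper left and right margins, and the 9 WT muscle spots form 1 patch.

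Muscle spots were shallow. Their median was 8217 UMIs in the KO section, against 37263 in all other KO spots, and 7308 in the WT section, against 26946 in all other WT spots. Levels are therefore given below as UMIs of a gene per 10000 UMIs of the same spots, in which the KO muscle spots hold 513864 UMIs in all and the WT muscle spots 66654. Because probes differ in number and yield between genes, a gene is compared only with itself across spots, or genes as shares of a fixed set.

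Within muscle spots, the sections differed by gene. Only Myh4 and Pvalb of the 9 genes stood at least 2-fold higher in KO than in WT muscle spots, where 12.4% of 2573 genes with at least 50 UMIs did so and 6.18% stood at least 2-fold lower. Myh4 had 37.1 UMIs per 10000 in KO muscle spots and 3.45 in WT muscle spots, a ratio of 10.8 (7.15 to 17). Pvalb had 15.6 per 10000 in KO and 4.05 in WT muscle spots, a ratio of 3.86 (2.63 to 5.89). These 2 genes, the IIb motor and the buffer of the fastest fibres, are also the 2 with the highest ratios over whole sections. That match is no separate result, since KO muscle spots hold 1909 of the section's 2486 Myh4 UMIs and 803 of its 1001 Pvalb UMIs.

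The other 7 genes had ratios of KO over WT muscle spots between 0.782 and 1.60. Atp2a1 had 24.3 per 10000 in KO and 18.6 in WT muscle spots, and Tnnt3 31.4 and 19.7. Ttn had 27.0 per 10000 in KO and 25.8 in WT muscle spots, with a ratio whose interval spans 1 (0.893 to 1.23). Acta1 was lower in the KO muscle, at 99.0 per 10000, against 126 in the WT muscle (ratio 0.782, 0.727 to 0.843). Tnnc2, Mybpc2 and Ckm had ratios of 1.29, 1.41 and 1.35. The median log2 ratio of the 9 genes was 0.43, beside -0.08 over all genes tested.

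The values of single muscle spots show the same. Myh4 had a lowest value of 4, a median of 31 and a highest of 116 UMIs over the 55 KO muscle spots, all of which held it. Over the 9 WT muscle spots it had 0, 2 and 11 UMIs, and 7 of 9 held it. Per 10000 UMIs these are 8.15, 34.7 and 135 in KO spots and 0, 2.13 and 9.29 in WT spots, so only the top of the WT range reaches the bottom of the KO range. Acta1 per 10000 had 23.6, 107 and 252 in KO spots and 61.6, 107 and 201 in WT spots, so the WT range lies within the KO range. Pvalb had 0, 15.9 and 76.1 per 10000 in KO spots and 0.844, 3.19 and 9.15 in WT spots, which overlap.

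The shares among 4 heavy chain myosins differed between the muscle of the sections. Of 2421 myosin UMIs in KO muscle spots, 78.9% were Myh4 (77.2 to 80.5), 20.3% Myh1 (18.7 to 21.9) and 0.867% Myh2. Myh7 had 0 of these 2421 UMIs, which allows a share of up to 0.124%. Of 264 myosin UMIs in WT muscle spots, 8.71% were Myh4 (5.60 to 12.8), 54.5% Myh1 (48.3 to 60.7) and 3.79% Myh2. Myh7 made up 33.0% there (27.3 to 39.0). By these counts the KO muscle held fast myosins with no UMI of the slow one, while the WT muscle held UMIs of both. Myosin genes are close relatives, and how far their probes tell them apart is not given in the sources used here. A share within a section also depends on the yield of each probe, so it is read between the sections and not as a share of fibres.

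The KO patches shared this makeup. Myh4 was 79.3% of myosin UMIs in the patch of 31 spots, 78.6% in the patch of 19 and 69.8% (60.1 to 78.4) in the patch of 4. All 19 myosin UMIs of the single spot were Myh4. Myh7 had 0 UMIs in each of these patches, out of 1618, 678, 106 and 19 myosin UMIs. Myh7 was in all 9 WT muscle spots, with 3 to 19 UMIs each and a median of 11, and in 0 of 55 KO muscle spots. The ranges of Myh7 in the muscle spots of the sections do not overlap.

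**Figure D2:**
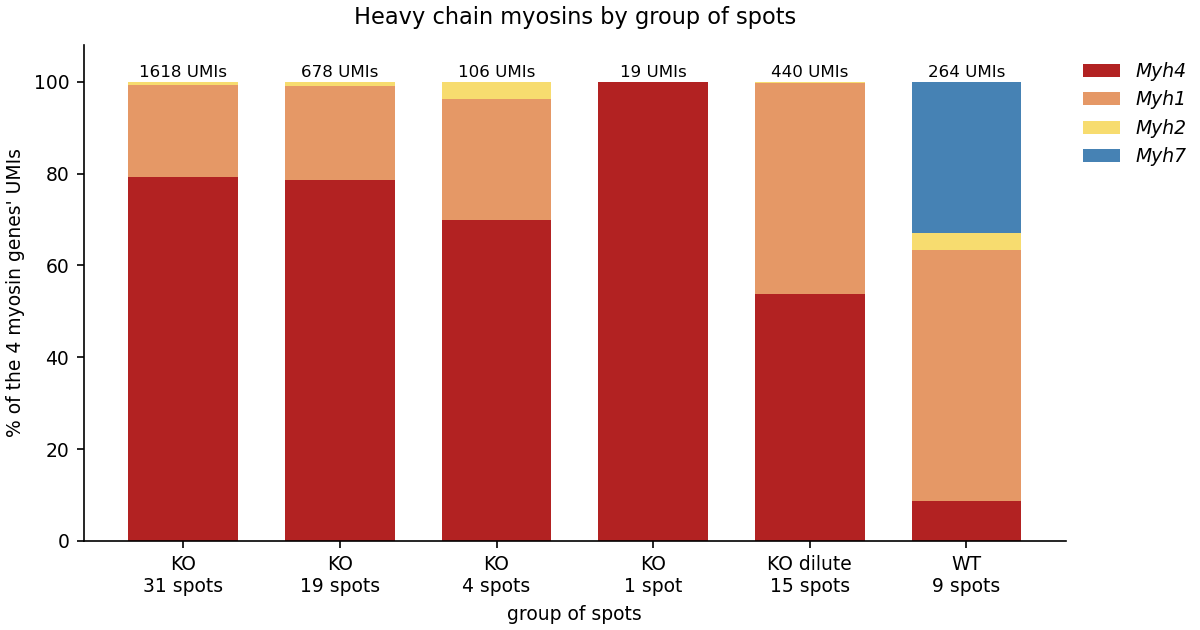
Bars give the percent of the UMIs of Myh4, Myh1, Myh2 and Myh7 in each group of spots, with the UMIs counted above each bar; the first 4 bars are the KO patches, then a dilute KO group of 15 spots, then the WT patch. Myh4 leads in every KO bar, and Myh7 appears in the WT bar alone, at 33.0%.

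Other fast and slow partners went the same way as the myosins. Among the troponins and the calcium pump, each fast gene was set against its slow partner. Tnnt3 gave 99.7% of the UMIs of Tnnt3 and Tnnt1 (slow troponin T) in KO muscle spots, against 70.4% in WT muscle spots. Tnnc2 gave 100% beside Tnnc1 (slow and cardiac troponin C) in KO muscle spots, from 2042 UMIs, against 85.1% in WT muscle spots. Tnni2 gave 100% beside Tnni1 (fast and slow troponin I) in KO muscle spots, from 410 UMIs, against 56.4% (42.3 to 69.7) in WT muscle spots.

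Atp2a1 gave 87.5% beside Atp2a2, the slow and cardiac calcium pump that many other cells use too, in KO muscle spots, against 60.5% in WT muscle spots. Mybpc2 gave 80.9% beside Mybpc1, the slow form of myosin-binding protein C, in KO muscle spots, against 60.3% in WT muscle spots. Mybpc1 had 105 UMIs in the KO muscle, 311-fold its level in KO spots more than 3 steps from any muscle spot. In all 5 pairs the fast share was higher in the KO muscle, and none of the intervals of the sections overlap. Except for Tnni2, the fast genes of these pairs are members, listed for their higher KO sums and used to set the muscle spots. Their direction is therefore no independent support, and the intervals cover counting error only.

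Of the 11 slow fibre genes in the matrix, 4 reached 50 UMIs over both sets of muscle spots, and 3 of the 4 stood at least 2-fold lower in the KO muscle, beside 6.18% of all genes. The other gene, Mybpc1, had a ratio of 0.504 (0.328 to 0.801). Myh7 and Tnnt1 passed the minimum through their WT counts, so they had to differ. The remaining lower gene, Atp2a2, had 3.46 per 10000 in KO muscle spots, below the 6.36 of far KO spots (more than 3 steps away). It therefore does not read slow fibres alone, and the count is no independent support. The median log2 ratio of the 4 genes, which rests on Tnnt1 and Atp2a2, was -4.05, or -4.11 with a count of 0 set to 3. Myh7 had 0 UMIs in KO and 87 in WT muscle spots, so that it was at least 224-fold higher in the WT muscle when a count of 0 is taken as 3. With the error of both counts, the lower 95% limit of that ratio was 178. Tnnt1 had 5 UMIs in KO and 55 in WT muscle spots, Tnnc1 0 and 36, and Tnni1 0 and 24. Myl2 and Myl3, slow and cardiac myosin light chains picked after their values were seen, had 0 UMIs each in KO and 20 and 14 in WT muscle spots. Casq2, slow calsequestrin, had 6 UMIs in KO and 3 in WT muscle spots, or 0.117 and 0.450 per 10000.

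The fast list outside the 9 genes was less divided. Of its 13 genes, 11 reached 50 UMIs over both sets of muscle spots. Actn3, the fast fibre actinin, stood at least 2-fold higher in the KO muscle, with 6.05 per 10000 against 1.65 in the WT muscle (ratio 3.67, 2.02 to 7.42). Myh1 stood at least 2-fold lower, with 9.56 per 10000 in KO and 21.6 in WT muscle spots. Mylpf, the fast regulatory light chain, had 25.2 per 10000 in KO and 18.9 in WT muscle spots. Casq1, fast calsequestrin, had 3.07 and 2.85. Pygm, muscle glycogen phosphorylase, had 5.10 and 2.70, and Eno3, muscle enolase, 11 and 8.10. Their median log2 ratio was 0.43.

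Genes of the fibre frame and of excitation split in both directions, with 3 of the 14 that reached 50 UMIs at least 2-fold higher in the KO muscle, beside 12.4% of all genes, and 2 lower, beside 6.18%. Their median log2 ratio was -0.37. The 3 higher genes, picked after their values were seen, were Smpx, a small protein of striated muscle, with 2.67 per 10000 in KO and 0.600 in WT muscle spots (ratio 4.44, 1.70 to 16.5), Neb and Hrc. Neb, the thin filament protein nebulin, had a ratio of 2.95 (1.11 to 11.1). Hrc, a calcium-binding protein of the fibre's calcium store, had a ratio of 2.08 with an interval that spans 1 (0.669 to 10.4). Cox6a2, a muscle form of a cytochrome c oxidase subunit, had 5.55 per 10000 in KO and 15.2 in WT muscle spots (ratio 0.366, 0.291 to 0.464). Mb, the oxygen store myoglobin, named after its values were seen, had 1.60 and 5.40. Des, which links the contractile units, had 24.2 per 10000 in KO and 39.3 in WT muscle spots, while Tcap, which caps titin, had 5.94 and 4.50. Endothelial genes, with 6 on the list, summed to 6.48 per 10000 in KO and 26.6 in WT muscle spots (ratio 0.244, 0.203 to 0.295).

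**Figure D3:**
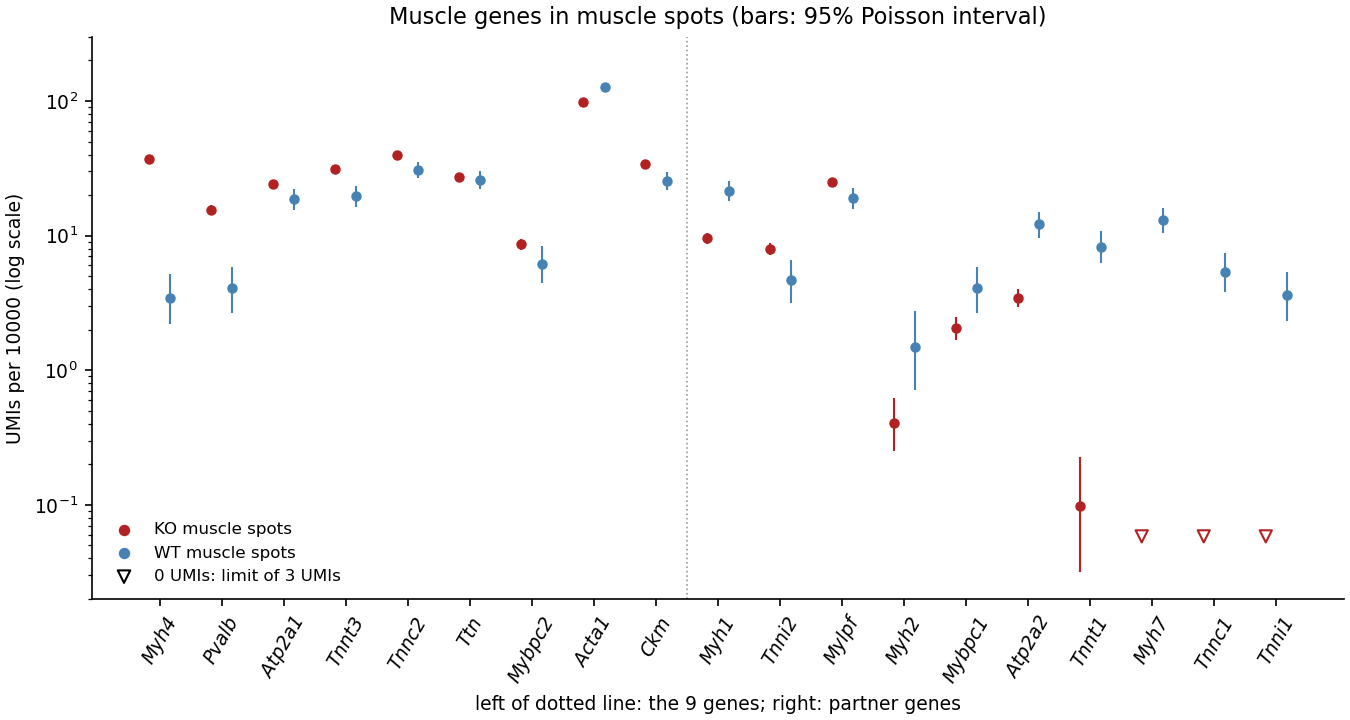
Points give UMIs per 10000 (log axis) in the 55 KO (red, left of each pair) and 9 WT (blue, right) muscle spots with 95% Poisson intervals, and open triangles give the limit of 3 UMIs for a count of 0. Myh4 and Pvalb stand apart on the left of the dotted line, and the slow genes Tnnt1, Myh7, Tnnc1 and Tnni1 on the right, where Myh7, Tnnc1 and Tnni1 have 0 UMIs in KO muscle spots.

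Against the rest of its own section, the muscle of both sections carried a whole fibre's genes. Spots more than 3 steps from any muscle spot, called far spots, serve as the comparison. All 12 fast partners with at least 50 UMIs in the KO section stood at least 2-fold higher in KO muscle spots, beside 24.9% of all genes, while 28.3% of all genes were lower by as much. The median log2 ratio of these partners was 8.27. All 10 with at least 50 UMIs in the WT section did so, beside 18.6% of all genes (38.4% lower), with a median of 9.09. The slow list did so for 3 of 5 genes in the KO section (Mybpc1, Tnnt1 at 4.85-fold and Casq2 at 4.38-fold), with a median of 2.24, or 2.28 with a count of 0 set to 3. It did so for 8 of 8 in the WT section (median 9.50). The frame list did so for 16 of 16 genes in the KO and 9 of 9 in the WT section. These spots were chosen by the 9 genes, and the partner genes took no part in that choice. Some listed genes still reached 50 UMIs only through those in muscle spots, so they had to stand higher. In the WT section these include Myh7 (87 of 131 UMIs in muscle spots), Mybpc1 (27 of 54), Tnni1 (24 of 54) and Myl2 (20 of 64). Casq1 (19 of 51) and Tcap (30 of 66) are others. For such genes the call is no independent support.

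Genes of other muscle states were sparse, with 5 of 5 measured genes of the satellite cell and regeneration list at least 2-fold higher in KO muscle than in far KO spots, beside 24.9% of all genes, and 1 of 3 in the WT section, beside 18.6%. Of these 5 KO genes, Pax7, Myh3 and Mymk had 1, 2 and 2 UMIs in KO muscle spots and intervals that span 1 (0.0681 to 15.8, 0.265 to 8.10 and 0.611 to 19.3). Pax7 and Mymk were picked after their values were seen. Of the atrophy and denervation list it was 7 of 8 in the KO and 3 of 5 in the WT section, beside the same shares of all genes. Among these, Chrng in the KO section (2 UMIs, 0.749 to 24.0) and Runx1 in the WT section (4 UMIs, 0.562 to 5.29) had intervals that span 1. Chrng was picked after its values were seen. Myog, a factor of muscle differentiation that also rises in denervated fibres, had 38 UMIs in KO muscle spots (64.2-fold its far level, 43.1 to 93.9). It had 5 UMIs in WT muscle spots (123-fold its far level, 38.3 to 304). Per 10000 these are 0.739 in KO and 0.750 in WT muscle spots (ratio 0.986, 0.387 to 3.21). Myh3, the embryonic myosin, had 2 UMIs in KO and 0 in WT muscle spots. Chrna1, a subunit of the acetylcholine receptor at the nerve junction, had 34 UMIs in KO and 5 in WT muscle spots, or 0.662 and 0.750 per 10000. Trim63, a ubiquitin ligase of muscle wasting, had 3.11 per 10000 in KO and 1.95 in WT muscle spots (ratio 1.60, 0.907 to 3.06). Gadd45a, a stress gene that also rises in denervated muscle, had 105 UMIs in KO and 2 in WT muscle spots, a ratio of 6.81 (1.84 to 57.0).

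Markers of heart and of smooth muscle had few UMIs in these shallow spots, and part of them stood above far spots. Of the heart list, Myh6 had 0 UMIs in both, Tnni3 had 5 in KO and 0 in WT muscle spots, and Tnnt2 7 and 1. Of the smooth muscle list, Acta2 had 29 UMIs in KO and 18 in WT muscle spots, or 0.564 and 2.70 per 10000, and Actg2 had 0 in both. Relative to far spots, 2 of 2 measured heart genes stood 2-fold or more higher in KO muscle (Tnni3 13.9-fold, 4.35 to 34.1, and Tnnt2 4.0-fold, 1.59 to 8.33) and 1 of 2 in the WT muscle. The WT gene was Tnnt2, on 1 UMI and with an interval that spans 1 (0.153 to 34.1). Of the smooth muscle list it was 3 of 5 genes in the KO and 5 of 6 in the WT section, with Acta2 3.52-fold higher (2.35 to 5.07) in the KO muscle and 2.33-fold higher (1.38 to 3.69) in the WT muscle. Of the WT genes, Myh11 had 3 UMIs, and Cnn1, picked after its values were seen, had 1 and an interval that spans 1 (0.336 to 76.3). These counts stand beside 24.9% of all genes in the KO and 18.6% in the WT section. The part of these cell types in the muscle spots was not tested. Keratinocyte genes summed to 1 UMI in KO and 0 in WT muscle spots. The off-tissue list, genes that neither tissue should express, had 7 UMIs in KO and 0 in WT muscle spots.

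Over the 55 KO muscle spots, the 36 pairs of members had a median Pearson correlation of 0.795 on the log2 scale. The lowest pair was Mybpc2 and Acta1 at 0.50 and the highest Atp2a1 and Ckm at 0.888. Over the 9 WT muscle spots the median was 0.563, with Myh4 and Tnnt3 lowest at -0.283 and Ttn and Acta1 highest at 0.887. The points share library and position, and the WT values of Myh4 are counts of 0 to 11.

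The genes most like the summed members over the 2746 KO spots, among 11173 other genes, were Mylpf (Pearson correlation 0.871), Car3 (0.856), Myl1 (0.839), Myh1 (0.802) and Actn3 (0.802). Tnni2 (0.799), Pdlim3 (0.791), Tpm2 (0.787), Des (0.777) and Cxcl14 (0.769) followed. In the WT section the same correlation was 0.747 for Mylpf, 0.778 for Myh1 and 0.632 for Myl1. It was 0.588 for Pdlim3, 0.563 for Tnni2, 0.465 for Des, 0.364 for Actn3 and 0.272 for Tpm2. The lowest values were 0.219 for Car3 and 0.113 for Cxcl14. Car3, a carbonic anhydrase of slow fibres and fat, had 24.0 per 10000 in KO muscle spots, against 0.0198 in far KO spots, and 9.0 in WT muscle spots, against 0.246 in far WT spots. Cxcl14, a chemokine, had 9.15 per 10000 in KO muscle spots, against 0.0429 in far KO spots, and 1.80 in WT muscle spots, against 0.151 in far WT spots.

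To see how far the UMIs spread, each gene was looked at around muscle spots defined by the other 8 genes alone. The share of a gene's UMIs inside those spots ran from 57.2% (Ckm) to 80.2% (Pvalb) in the KO section, with a median of 72.2%. For WT it ran from 17.5% (Ckm) to 63.6% (Atp2a1), with a median of 50.5%. For Myh4 it was 76.3% in the KO and 35.9% (24.3 to 48.9) in the WT section.

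One step away, the level of a gene fell to between 6.35% (Mybpc2) and 15.3% (Acta1) of its level in the KO muscle spots, with a median of 8.37%. The WT range was 7.49% (Tnnt3) to 18.6% (Acta1), with a median of 10.1%. Myh4 in the KO section had 37.8 UMIs per 10000 in muscle spots, 2.67 at 1 step, 0.367 at 2 steps, 0.192 at 3 steps and 0.0364 beyond. Acta1 there had 111 in muscle spots, 17.1 at 1 step, 2.1 at 2 steps, 0.806 at 3 steps and 0.0880 beyond. The fall at the first step depends on where the muscle threshold is set, with 6.70% for the summed members at 0.5% and 20.8% at 2%, against 11.3% at 1%, in the KO section. A true edge of mixed tissue and UMIs that moved sideways cannot be told apart here.

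**Figure D4:**
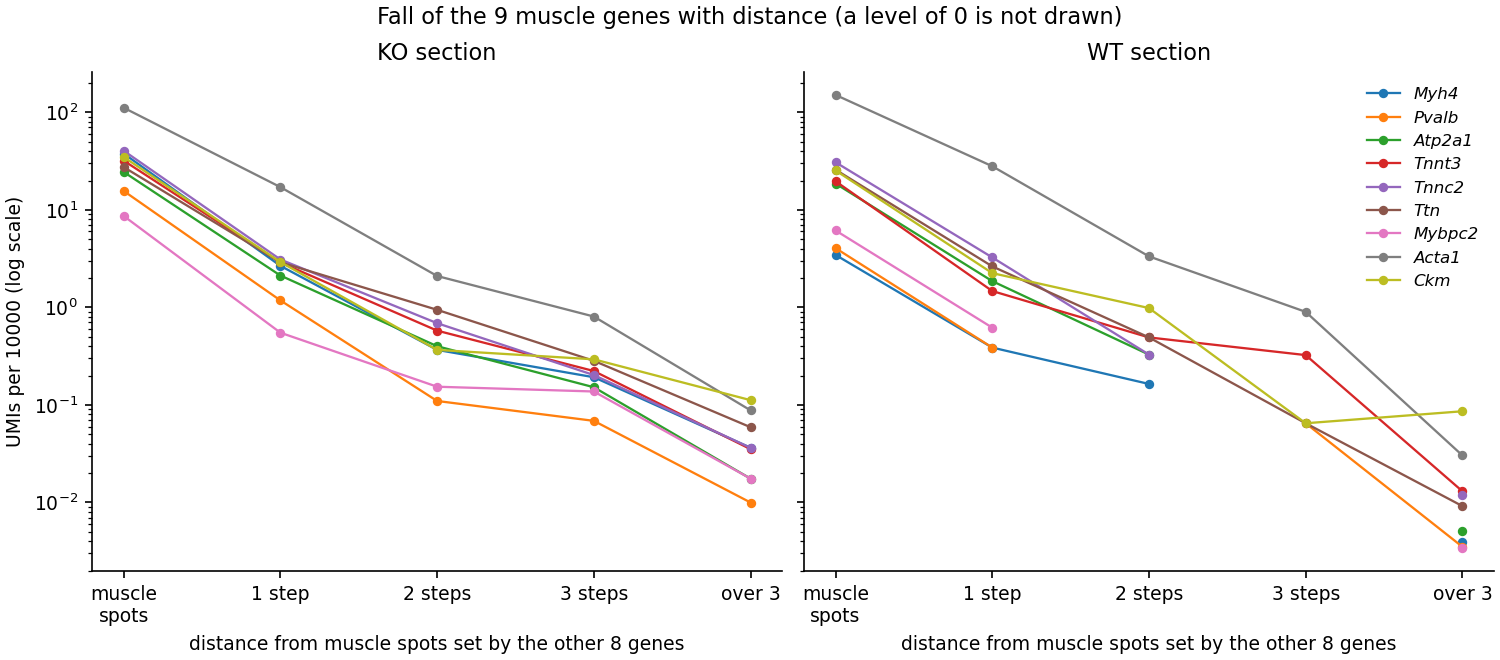
Lines give the UMIs per 10000 (log axis) of each of the 9 genes in muscle spots set by the other 8 genes and at 1, 2, 3 and more than 3 grid steps from them, in the KO (left) and WT (right) section. In both panels each gene is far lower at 1 step than in muscle spots.

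A dilute band of muscle UMIs lay above the right KO patches. It was 15 touching KO spots (rows 19 to 27, columns 104 to 108), all more than 3 steps from any muscle spot, with member shares of 0.143% to 0.573% and a median of 48942 UMIs. The band held 1695 member UMIs, 7.39% of the section's. Its spots lay at most 3 steps from the edge. Among its 440 myosin UMIs, 53.9% (49.1 to 58.6) were Myh4, 45.9% (41.2 to 50.7) Myh1, and 0 Myh7. Myh4 had 3.35 per 10000 in the band, against 37.1 in KO muscle spots, and Pvalb 0.452, against 15.6. Melanocytic genes, the markers of the tumour, summed to 372 per 10000 in the band, against 82.3 in KO muscle spots and 480 in far KO spots. The band was singled out after the data were seen. The WT section held 1 such spot, with 55 member UMIs.

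Beyond the patches and the band, the members were rare. A further 25 KO spots passed a share of 0.1% in shallow tissue with a median of 788 UMIs, and held 51 member UMIs together. Without the band, 2550 far KO spots held 0.228 member UMIs per 10000, and 3024 far WT spots 0.160. Myh4 had 95 UMIs in the far KO spots and 34 in the far WT spots (ratio 2.73, 1.82 to 4.16), and Ttn 223 and 71 (ratio 3.06, 2.34 to 4.06). These were the highest ratios of the 9 genes. The rest ran from 1.14 (Ckm) to 1.89 (Mybpc2), and all 9 together had 1.42 (1.33 to 1.52). The off-tissue genes had a ratio of 1.18 over the same spots.

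Ckm was the exception among far spots. It had 885 UMIs in the far KO spots and 754 in the far WT spots, 0.0978 and 0.0854 per 10000 (ratio 1.14, 1.04 to 1.26), with at most 6 and 7 in a spot. Of its own UMIs, around muscle spots set by the other 8 genes, 33.4% lay in far KO spots and 78.8% in far WT spots. For the other 8 genes these shares ran from 9.09% (Pvalb) to 23.9% (Ttn) in the KO and from 20.6% (Acta1) to 54.7% (Myh4) in the WT section. Ckm also had the lowest KO over WT ratio of whole sections. Far Ckm was 0.106 per 10000 in the KO spots at or above the median melanocytic share and 0.0827 in the remaining KO spots. The same WT values were 0.110 and 0.0336. The part of melanocytic cells in this level was not tested.

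KO muscle spots were rich in T cell genes. The 16 T cell genes, which encode the T cell receptor, its CD3 chains and their signalling partners, summed to 12.7 UMIs per 10000 in KO muscle spots (652 UMIs), against 0.676 in far KO spots, a ratio of 18.8 (17.3 to 20.3). The level was 12.7 at 1 step, 6.71 at 2 steps and 3.68 at 3 steps. All 16 genes stood at least 2-fold higher in KO muscle spots than in far KO spots, beside 24.9% of all genes. Trbc2, a constant part of the T cell receptor, had 2.02 per 10000 in muscle spots and 0.0979 in far spots, and Cd3e 1.25 and 0.0748. All 14 cytotoxic genes did so too, beside the same 24.9%, and summed to 14.9 in KO muscle spots, against 1.30 in far KO spots. Cd8a, the coreceptor of killer T cells, had 0.895 and 0.0499, and Ccl5, a chemokine of activated T cells, 10.2 and 0.975. Ccl5 thus gave most of the cytotoxic sum, with 524 of its 766 UMIs in KO muscle spots, so the ratios of that list mainly follow Ccl5.

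The 9 WT muscle spots held 0 UMIs of the 16 T cell genes. That is up to 0.450 per 10000 when a count of 0 is taken as 3, with an upper 95% limit of 0.553. Far WT spots had 0.369. The WT muscle spots hold too few UMIs for a level as low as that of far WT spots to be seen. The T cell level of KO muscle spots was at least 28.2-fold that of WT muscle spots, with the count of 0 taken as 3, and the lower 95% limit of that ratio was 22.9. Around the WT patch it was 0.387 at 1 step, 1.64 at 2 steps (10 UMIs) and 0.519 at 3 steps. Cytotoxic genes had 4 UMIs in WT muscle spots, or 0.600 per 10000 (0.164 to 1.54), against 0.611 in far WT spots.

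MHC class II genes, by which macrophages, dendritic cells and B cells show peptides to helper T cells, were also dense in the KO muscle. The 9 genes summed to 90.1 per 10000 in KO muscle spots, 103 at 1 step, 45.7 at 2 steps, 22 at 3 steps and 3.35 beyond, a ratio of 26.9 (26.1 to 27.8) of muscle over far spots. Cd74, the invariant chain, had 53.7 in muscle spots and 1.89 in far spots, and H2-Aa and H2-Eb1 had ratios of 28.8 and 35.8. H2-Oa had 0 UMIs in the muscle spots. The WT list sum was 19.1 per 10000 in muscle spots, 20.9 at 1 step, 32.8 at 2 steps, 44.7 at 3 steps and 4.65 beyond, so it was higher beside the patch than in it. KO over WT muscle spots had a ratio of 4.73 (3.96 to 5.68) for this list.

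The MHC class II ratio moved with the spots it was set against. Melanocytic genes summed to 82.3 per 10000 in KO muscle spots, against 480 in far KO spots. Set against the 93 far KO spots whose melanocytic share was at or below the median of the muscle spots, a comparison chosen after the data were seen, the MHC class II ratio was 1.18 (1.13 to 1.23), with 76.3 per 10000 in these spots. The T cell ratio was 8.19 (6.61 to 10.2) there, with 1.55 per 10000, and the cytotoxic ratio 7.35 (6.09 to 8.94). Macrophage genes were lower in KO muscle spots, at 70.5, than in these spots, at 176. In the WT section the MHC class II ratio was 0.929 (0.774 to 1.11) against 575 such spots. These WT spots had 1.21 T cell UMIs per 10000, and against them the T cell ratio of WT muscle spots was 0 with an upper limit of 0.458. Set against far spots within 2 steps of the edge, the KO ratios were 12.5 for T cells and 10.8 for MHC class II.

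Other gene lists also stood higher in KO muscle spots than in far KO spots. Erythroid genes, which mark red blood cells, summed to 442 per 10000 in KO muscle spots, against 14.2 in far KO spots, and to 18.6 in WT muscle spots, against 3.22 in far WT spots. All 4 measured stood at least 2-fold higher in KO muscle spots than in far KO spots, beside 24.9% of all genes, among them Hbb-bs, a beta globin, with 11942 UMIs in KO and 55 in WT muscle spots. Fibroblast genes summed to 125 per 10000 in KO muscle spots, against 12.3 in far KO spots, and to 238 in WT muscle spots, against 120 in far WT spots. Genes of the interferon gamma response summed to 28.0 in KO muscle spots, against 7.39 in far KO spots, and to 4.95 in WT muscle spots, against 8.36 in far WT spots. In the far spots of low melanocytic share, fibroblast genes had 384 per 10000 in the KO and 913 in the WT section, above the muscle spots. Erythroid genes had 35.1 and 12.5 there, and genes of the interferon gamma response 18.6 and 5.39. Cxcl10, a chemokine that draws T cells, had 197 UMIs in KO and 0 in WT muscle spots. Adipocyte genes summed to 7.12 in KO and 14.3 in WT muscle spots. The part of blood, stroma and low depth in the T cell level was not tested.

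The KO patches differed in this surrounding. T cell genes had 9.31 per 10000 (8.25 to 10.5) in the patch of 31 spots, 16.8 (14.9 to 18.7) in the patch of 19, 23.7 (18.2 to 30.4) in the patch of 4 and 6.84 in the single spot. MHC class II genes had 64.9, 109, 175 and 403 in the same order. Erythroid genes had 255, 804, 93.4 and 92.3 per 10000. Each patch over 1 spot lay far above the far KO level of 0.676 for T cells. The dilute band had 0.706 T cell UMIs per 10000 (0.524 to 0.931) and 8.63 of MHC class II (7.95 to 9.34), beside 1.02 and 8.33 in far KO spots within 2 steps of the edge.

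**Figure D5:**
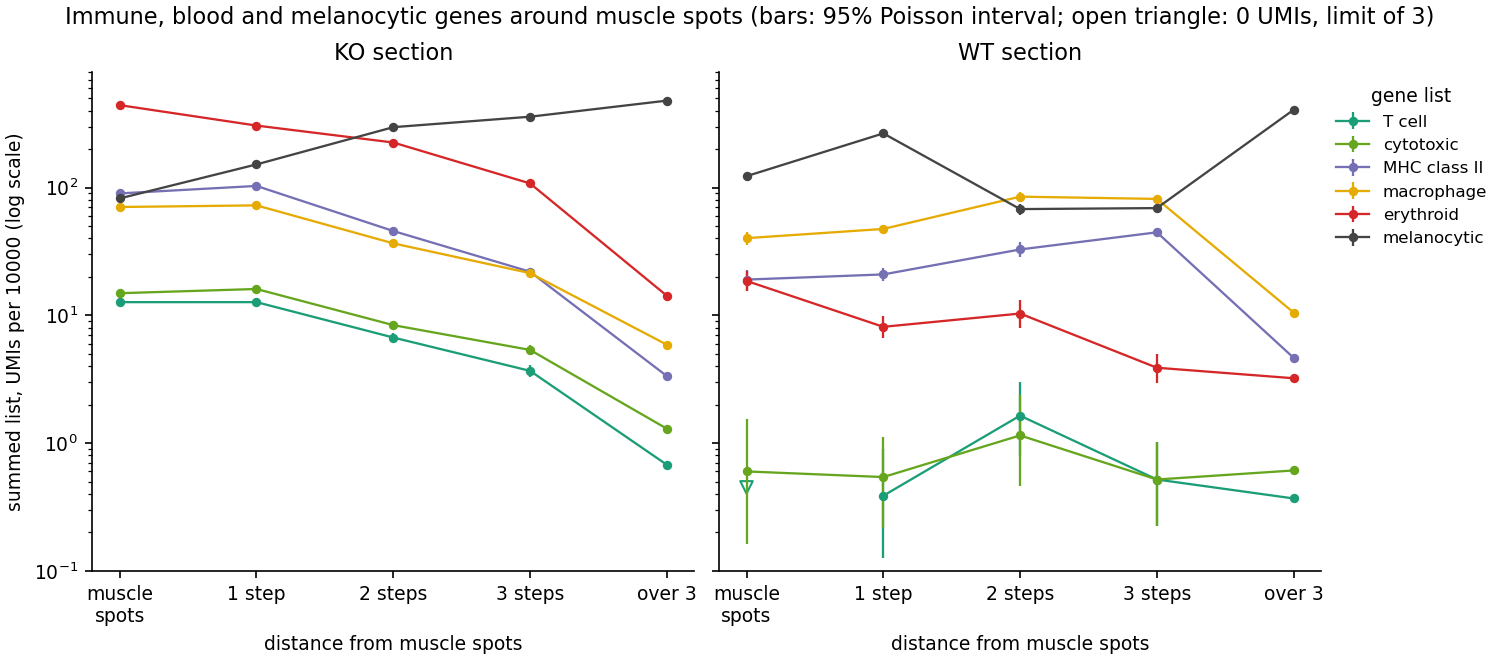
Lines give the summed UMIs per 10000 (log axis) of T cell, cytotoxic, MHC class II, macrophage, erythroid and melanocytic genes in muscle spots and at 1, 2, 3 and more than 3 grid steps, KO left and WT right, with 95% Poisson intervals; the open triangle is the limit for 0 T cell UMIs in WT muscle spots. In the KO panel T cell and MHC class II genes are highest in and next to muscle spots, and in the WT panel MHC class II genes peak at 3 steps.

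Within the muscle, member and immune shares ran in opposite directions, with weak correlations. Over the 55 KO muscle spots the rank correlation of the member share was -0.280 with the T cell share, -0.385 with the cytotoxic share and -0.351 with the MHC class II share. A spot that holds more of one tissue holds less of another, so shares of 1 spot are tied to each other. With member UMIs left out of the total the values were -0.264, -0.371 and -0.302. Within the patch of 31 they were -0.122 for T cells and -0.266 for MHC class II, and within the patch of 19 they were -0.272 and -0.230.

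Over other sets of KO spots the values for T cells and MHC class II were positive, except for MHC class II in far spots. Over all 2746 KO spots the rank correlation was 0.157 for T cells and 0.121 for MHC class II, and over the 761 KO spots within 2 steps of the edge 0.343 and 0.192. Over the 91 KO spots at 1 or 2 steps it was 0.073 and 0.215, and over the 2565 far KO spots 0.034 and -0.039. In the WT section it was 0.031 and -0.039 over all 3066 spots. Over the 9 WT muscle spots it was -0.683 for MHC class II, with no value for T cells. Over the 16 WT spots at 1 or 2 steps it was -0.301 for T cells, from 15 UMIs, and -0.597 for MHC class II, the opposite sign to the KO spots at these steps. All are descriptions over spots that share library, depth and position, and in far spots the median T cell count was 1 UMI in the KO and 0 in the WT section, so weak values there are no finding.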

How the data were processed

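Gene expression was measured with Visium CytAssist in 1 KO and 1 WT section, grouped by the sample labels. The deposited values are raw UMI counts of each gene in each tissue spot, written by Space Ranger 2.1.0 as stated per the file headers. Beside it, featureCounts and mm10 appear in the submitters' processing notes without a stated role. Moran's I is a score from the authors' deposited spatial table and was not recomputed. A deposited grid of 4992 positions gave rows, columns and the tissue edge.

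UMIs were summed over sections or sets of spots. Ratios carry exact conditional binomial intervals, levels exact Poisson intervals and shares Clopper-Pearson intervals, at 95%. No p-value was computed, since each genotype is 1 section, and spots were not used as replicates of a genotype. A count of 0 was bounded by 3 counts per set of spots. Steps are counted on the hexagonal grid. A gene was called higher or lower at a 2-fold ratio of levels, among genes with at least 50 UMIs. The call uses the counts as they stand, a choice made after seeing that adding 0.5 put genes at 0 UMIs above the line in the shallow muscle spots. Medians of log2 ratios have 0.5 added to each count. Python 3.11.15 with numpy 2.4.6, scipy 1.17.1 and pandas 2.3.3 was used, and edgeR 4.0.16 in R 4.3.3 for TMM factors in an alternative. The routines were tested on simulated data.

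The members, 20 gene lists and tests were chosen with earlier results of these data known. Named genes are the 9 members, their fast and slow partners, in each list the 3 most counted genes and the extremes of the KO muscle ratio, and the 10 genes most correlated with the summed members among genes with at least 200 KO UMIs. Other names are marked as picked after their values were seen. Promoter sequences are from RefSeq.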

Additional observations from a re-analysis of the deposited data

How the results depend on the processing

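With 1 section per genotype nothing here measures variation between animals, and WT muscle rests on 9 spots and 66654 UMIs. No paired analysis was possible because each group has 1 section and no result comes from a test. Scaling of the section sums left the 9 members higher in the KO section under all 63 combinations of member and alternative, by more than 2-fold each. Their median ratio was 6.58 with TMM factors, 6.52 with median-of-ratios factors, 9.01 with equal weight per spot and 10.2 in spots more than 2 steps from the edge, against 7.65. The spots more than 2 steps from the edge leave out all 9 WT muscle spots and 44 of the 55 KO ones. That value is therefore no check of the muscle. The 0.1% threshold and the reference of low melanocytic share were chosen after seeing the data. At member shares of 0.1% and 5% the muscle spots numbered 101 and 15 in the KO section and 14 and 0 in the WT section. Without Acta1 and Ckm the WT number was 5.

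At 0.5% and 2% the share of member UMIs inside the muscle spots of the other 8 genes was 74.6% and 51.0% in the KO section (68.3% at 1%), and 52.4% and 21.4% in the WT section (43.2%). The level 1 step away was 6.70% and 20.8% of the muscle level in the KO section (11.3%), and 6.09% and 50.4% in the WT section (16.2%). As mean UMIs per spot it was 19.2% in the KO and 25.7% in the WT section. The median log2 ratio of muscle over far spots for fast partners was 8.69 at 2% and 7.27 against far edge spots in the KO section, and 9.42 at 2% in the WT section. For slow genes it was 1.85 at 0.5% in the KO and 9.07 against far edge spots in the WT section.

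In the KO section the T cell ratio was 15.8 after thinning spots to 5000 UMIs, 12.5 against far edge spots, 8.19 against spots of low melanocytic share and 15.6 at 2%. The cytotoxic ratio was 8.97, 7.35, 10.6 and 8.87 against far edge spots, against spots of low melanocytic share, at 0.5% and at 2%. The MHC class II ratio was 28.3 without muscle genes in the total, 16.4 after thinning, 10.8 against far edge spots, 1.18 against spots of low melanocytic share and 21.4 at 2%. In the WT section the MHC class II ratio was 2.28 after thinning, 3.23 against far edge spots and 2.86 at 2%, and it turned to 0.929 against spots of low melanocytic share. The WT cytotoxic ratio, 0.983 from 4 UMIs, turned to 1.03 without muscle genes, 1.26 after thinning and 1.13 at 2%. The KO rank correlation over all spots was 0.343 for T cells near the edge and 0.242 for MHC class II after thinning. The WT value for MHC class II turned to 0.028 after thinning and 0.026 near the edge. The cause of these shifts was not tested. None of the remaining 49 values changed direction. Among them the WT muscle spots, and the patch they form, numbered 6 at 2% (9 at 1%). The WT rank correlation for T cells was 0.0062 after thinning and 0.075 near the edge (0.031), and the KO value for MHC class II was 0.192 near the edge (0.121). The others moved by under 1.5 times.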

Other observations

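Myl4, an embryonic and atrial light chain, had 47 UMIs in KO muscle spots, 10.5-fold its far level (7.65 to 14.1), and 1 in WT muscle spots. Pax7, the marker of muscle stem cells, named after its values were seen, had 1 UMI in KO and 1 in WT muscle spots. Fabp4, a fatty acid carrier of fat cells and small vessels, had 246 UMIs in KO and 65 in WT muscle spots, 5.73-fold and 16.8-fold the far level of its own section. Plvap, a gene of fenestrated vessels, had 125 UMIs in KO and 102 in WT muscle spots, or 2.43 and 15.3 per 10000.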
